A study of Triticum aestivum and Aegilops tauschii and Triticum carthlicum with 33 samples.

Results

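The 200 probe sets described here are the strongest D genome transcripts on the array, the ones with the widest gap between leaves of Aegilops tauschii and leaves of tetraploid wheat. They were taken from 61179 probe sets by a score, the lower of the group means of TQ18 and 30A minus the highest of the group means of Extracted-tetra, TTR13, TD265 and Blackbird, all on the log2 scale. The 18 arrays of those 6 groups chose the members, so their values are given only as a description. The 15 arrays of TAA10, XX329, Allo-960S7 and both RNA mixes played no part in the choice. The mixes were pooled from RNA of Extracted-tetra, TQ18, Blackbird and 30A, groups of the rule, so their levels largely follow from it.

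The series profiled leaf RNA on the Affymetrix wheat array, with 3 arrays labelled as biological replicates in each of 11 groups. TQ18 and 30A were lines of Aegilops tauschii, a diploid grass that carries only the D genome. TTR13 (durum), TD265 (dicoccoides) and Blackbird (carthlicum) were natural forms of Triticum turgidum, with the BBAA genomes and no D genome. TAA10 was a hexaploid common wheat, Triticum aestivum, with BBAADD. Extracted-tetra carried the BBAA genomes recovered from TAA10 through crosses with a durum line and backcrosses. XX329 was a resynthesized hexaploid with Extracted-tetra as its maternal parent and TQ18 as the D genome donor. Allo-960S7 was a synthetic hexaploid of Blackbird and 30A, selfed to generation 7. In XX329 mix the RNA of Extracted-tetra and TQ18, and in Allo-960 mix that of Blackbird and 30A, was pooled before labelling in the proportion of 2 parts tetraploid to 1 part diploid. Each group stands for 1 line, so differences between groups are differences between lines. Nothing in the labels gives a scan or extraction batch.

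In a hexaploid wheat most genes exist as 3 homoeologs, the copies that came from the A, B and D donors. A probe set that matches the D copy and not the A and B copies reads that copy alone, while one that matches all copies reads their sum. RNA pooled from both parents stands in for additive expression, the level at which each subgenome is transcribed as it was in its donor. A hexaploid above or below its mix therefore has more or less of a transcript, relative to all RNA on the array, than the parents' RNA supplies.

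Within groups, r between arrays ran from 0.9792 to 0.996, and no pair of arrays was identical. The median signal of an array was 4.37 to 4.48 log2 units. A fold that reaches below this level is not secure, since the deposited values hold no background measure. The leaf label was checked on the chloroplast transcript rbcl, at 14.9 to 15.1 log2 units on all arrays. It was picked as the brightest of 28 leaf probe sets, so a high level was built in, and the others are not summarised. The label was also checked on 11 seed storage probe sets, whose medians per array lay between 3.02 and 3.32. Hybridisation controls averaged 9.12 to 9.54 in 12 arrays, those of Allo-960S7, its mix and its parents Blackbird and 30A, but 9.69 to 10.3 in the other 21. Allo-960S7 and its mix lie on the same side of this divide, as do XX329, its mix and TAA10. For Allo-960S7 or Allo-960 mix against TAA10 the apparent set of arrays and the line cannot be told apart. The level of a transcript in a whole leaf is given throughout, and fewer cells of a type and less RNA per cell cannot be told apart.

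Scores ran from 10.31 for Ta.13207.1.S1_x_at down to 5.16 at rank 200, with a median of 6.31. The last 5 members scored 5.18, 5.17, 5.17, 5.16 and 5.16. The next 5 probe sets, just outside, scored 5.16, 5.14, 5.14, 5.13 and 5.12, so the boundary falls in a smooth run of values. The highest tetraploid mean lay under the lowest array median for 115 members, and the gap of those members has no secure size as a fold. All 5 groups outside the rule had means above the highest array median for 195 members.

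The members were bright in every group that contains D genome RNA. Their median was 11.11 log2 units in TQ18 and 11.08 in 30A. In the tetraploids it lay between 3.83 and 3.86. TAA10 had a median of 9.27, XX329 of 9.31 and Allo-960S7 of 9.22, while XX329 mix had 9.44 and Allo-960 mix 9.48. The 3 arrays of each group gave medians of 9.18 to 9.51 in TAA10, 9.32 to 9.37 in XX329, 9.16 to 9.37 in Allo-960S7, 9.22 to 9.51 in XX329 mix and 9.38 to 9.49 in Allo-960 mix. The arrays of Allo-960S7 and XX329 thus lay just below those of Allo-960 mix, while TAA10 and XX329 mix overlapped with all other groups outside the rule.

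**Figure D1:**
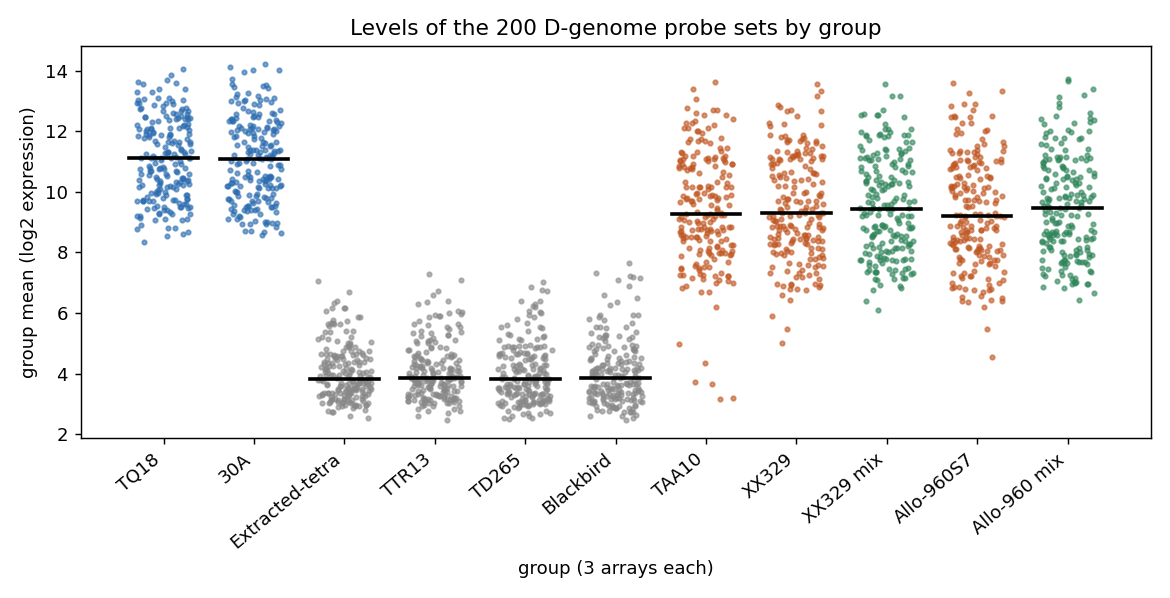
Group means of the 200 members on the log2 scale (y axis) in each of the 11 groups (x axis), 1 point per probe set, with the median as a bar; diploids are blue, tetraploids grey, hexaploids orange and mixes green. The diploid lines centre near 11.1, the tetraploids near 3.8, and the hexaploids and mixes between 9.22 and 9.48, with a few TAA10 points down among the tetraploids.

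The 5 highest scores showed levels close to those of the mixes. Ta.13207.1.S1_x_at measured 13.12, 13.21 and 12.89 in TAA10, 13.26, 13.43 and 12.85 in XX329, and 13.60, 13.57 and 13.61 in Allo-960S7. Its mixes measured 13.15, 13.29 and 13.08 for XX329 and 13.45, 13.45 and 13.27 for Allo-960. XX329 overlapped both its mix and TAA10, and none of the tests of this probe set passed the threshold, an adjusted p under 0.05 in limma after Benjamini-Hochberg adjustment over all 61179 probe sets. Ta.20117.1.S1_x_at, with 12.51 ± 0.22 in XX329 and 12.70 ± 0.07 in Allo-960S7 against 12.61 ± 0.23 in TAA10 (mean ± SD, n = 3 each), passed none either. Ta.1147.1.A1_at, at 10.62 ± 0.24 in TAA10 and 10.62 ± 0.04 in XX329, was higher in Allo-960S7 than in TAA10 by 0.52 (11.14 ± 0.02, n = 3 each; limma, Benjamini-Hochberg adjusted p = 0.00352). Ta.23362.2.S1_at was higher in XX329 (12.72 ± 0.35) than in XX329 mix (12.09 ± 0.05) by 0.63 (n = 3 each; limma adjusted p = 0.0342), a call that ended in 5 of the 6 fits that left out 1 array. Ta.9513.1.S1_a_at was lower in Allo-960S7 (9.76, 10.10 and 10.85) than in Allo-960 mix (11.20, 11.15 and 10.79) by 0.81, with 1 array of Allo-960S7 inside the range of the mix (limma adjusted p = 0.00893). Without Allo-960S7 replicate 1 or replicate 2 the call on Ta.9513.1.S1_a_at was lost.

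Dilution sets the level to compare with. A transcript present only in the diploid parent and pooled 1 part in 3 would lie 1.58 log2 units below that parent. The median distance was −1.63 for XX329 mix below TQ18 and −1.61 for Allo-960 mix below 30A, which corresponds to 32.2% and 32.8% of the diploid level. XX329 lay at −1.55 from TQ18 (34.2%), and Allo-960S7 at −1.69 from 30A (31.1%). TAA10, whose own D donor was not profiled, lay at −1.57 from TQ18 and −1.55 from 30A. These distances use the diploid means that chose the members and carry no test.

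Medians agreed more closely than single members did. The distance was within 0.5 log2 units of the dilution value for 173 members in XX329 mix and 176 in Allo-960 mix, against 131 in XX329 and 106 in Allo-960S7. The SD over members was 0.349 and 0.327 in the mixes, 0.693 in XX329 and 0.775 in Allo-960S7. The mixes hold RNA of the lines that chose the members, so their closeness to the dilution value is in part built in. No member lay more than 1 log2 unit below the dilution value in either mix, but 10 did in XX329 and 17 in Allo-960S7. In TAA10 there were 12 against TQ18 and 15 against 30A. Only the Ta.28592.1.S1_at and Ta.28592.1.S1_x_at pair exceeded the diploid parent in its own hexaploid, by 0.89 and 0.83 in XX329.

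**Figure D2:**
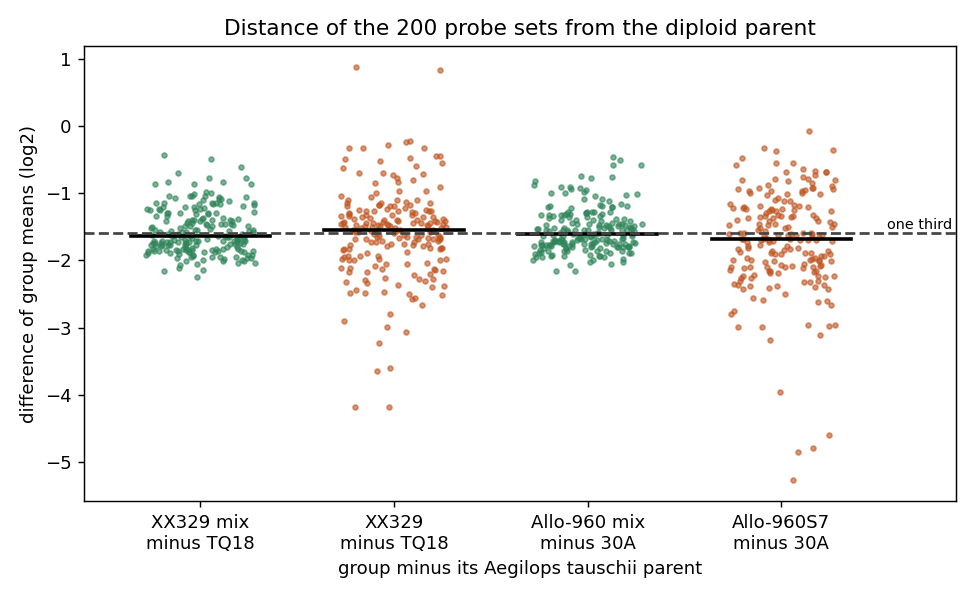
Distance of each of the 200 members from its Aegilops tauschii parent (y axis, log2 difference of group means) in both mixes and both synthetic hexaploids (x axis), with the median as a bar and a dashed line at 1 part in 3. The mixes form narrow bands around the line (SD 0.349 and 0.327), and the hexaploids spread further on both sides (SD 0.693 and 0.775).

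The distance moved with brightness. In the 67 dimmest members by diploid level the median distance was −1.85 in XX329 mix and −1.78 in Allo-960 mix. In the 67 brightest it was −1.19 and −1.30. XX329 went from −1.82 to −1.40 and Allo-960S7 from −1.90 to −1.27 over the same brightness classes, so the mixes, in which the proportion was fixed by pipetting, showed the same order as the hexaploids. The part that brightness played in the distances was not tested. The next 200 scores, dimmer in the diploids (medians 9.41 in TQ18 and 9.28 in 30A), lay at −1.84 and −1.76 in the mixes and at −1.86 and −1.90 in XX329 and Allo-960S7.

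A few transcripts strong in both Aegilops tauschii lines were at or near the tetraploid level in the natural hexaploid. In TAA10, 6 of the 200 members lay less than 1 log2 unit above the highest tetraploid mean, 4 of them below it, and the next member lay 2.97 above. None did so in XX329 or in either mix, and 1 did in Allo-960S7. This contrast is in part built in, since the rule required a high level in the D donors of XX329, Allo-960S7 and the mixes. A mix that holds their RNA follows them, so its count says nothing further. The D donor of TAA10 was not profiled, so these counts cannot set the natural hexaploid apart from the synthetic ones. Tests of the low members against TAA10 below share this limit. The 6 were picked by their TAA10 level, so no count of calls against TAA10 is given for them. The count in TAA10 was 6 at a distance of 2 log2 units and 5 at 0.5.

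Ta.30807.3.S1_at was among the brightest members and the furthest down in TAA10. It measured 3.52, 4.05 and 3.38 in TAA10, under all array medians, but 13.73, 13.18 and 13.08 in XX329 and 12.99, 12.91 and 12.64 in Allo-960S7. Both mixes, at 13.18 ± 0.05 and 12.95 ± 0.25 (n = 3 each), were as high as the hexaploids made from the same parents. The difference from TAA10 was 9.68 log2 units in XX329 (SE 0.24; limma adjusted p = 1.15e-22) and 9.20 in Allo-960S7 (limma adjusted p = 1.79e-22). Because TAA10 was under the array medians, neither has a secure fold.

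Other probe sets with the number Ta.30807 gave another picture of the same transcript cluster. Ta.30807.1.S1_at was the reverse of the member, with 3.34 in TQ18 and 2.98 in 30A against 13.78 in the highest tetraploid, and was bright in TAA10 at 13.04, in XX329 at 13.24 and in Allo-960S7 at 13.35. Ta.30807.2.S1_s_at, of the type shared by several transcripts, was bright everywhere, with 12.04 in TQ18, 13.68 in the highest tetraploid and 13.58 in TAA10. TAA10 therefore lacked the signal of the member and kept that of both others. A D copy with little transcript and a D copy that the probes do not match cannot be told apart from these values.

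Ta.3987.1.S1_x_at behaved alike at a lower level. TAA10 gave 3.18, 3.78 and 4.24, whereas XX329 gave 11.47, 11.22 and 11.19 and Allo-960S7 11.50, 11.83 and 11.89. All arrays of the hexaploids made from known parents lay far above TAA10. The differences from TAA10 were 7.56 (limma adjusted p = 1.76e-23) and 8.01 (limma adjusted p = 2.44e-24). Allo-960S7 also exceeded its mix by 0.59 (11.74 ± 0.21 against 11.15 ± 0.13, n = 3 each; limma adjusted p = 0.0356).

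Ta.3764.1.S1_at measured 4.40, 4.27 and 4.35 in TAA10, 8.58, 8.65 and 9.03 in XX329 and 8.93, 8.69 and 8.59 in Allo-960S7. It was higher than TAA10 by 4.41 in XX329 (limma adjusted p = 2.49e-19) and by 4.39 in Allo-960S7 (limma adjusted p = 1.13e-19). A further probe set with that number, Ta.3764.2.S1_a_at, scored 4.62, too low to be a member, and had the same order, 3.83 in TAA10, 6.98 in XX329 and 6.96 in Allo-960S7. So 2 probe sets of this cluster were low in TAA10 and not in the synthetic hexaploids.

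The other 3 low members were dimmer. Ta.15947.1.S1_at gave 2.87, 3.44 and 3.27 in TAA10, against 6.42 ± 0.33 in XX329 and 6.84 ± 0.16 in Allo-960S7 (n = 3 each), a difference of 3.23 from TAA10 for XX329 (limma adjusted p = 8.53e-12). Ta.10291.1.S1_at gave 2.94, 3.50 and 3.07 in TAA10, 7.51 ± 0.17 in XX329 and 7.32 ± 0.21 in Allo-960S7 (n = 3 each). TaAffx.19692.1.A1_at gave 5.39, 4.90 and 4.61 in TAA10, somewhat above its tetraploid mean of 4.10, with 8.06 ± 0.07 in XX329 and 7.93 ± 0.10 in Allo-960S7 (n = 3 each). In none of the 3 did a TAA10 array reach an array of either synthetic hexaploid. Ta.10291.1.S1_at and TaAffx.19692.1.A1_at were named after their values were seen, to complete the 6.

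**Figure D3:**
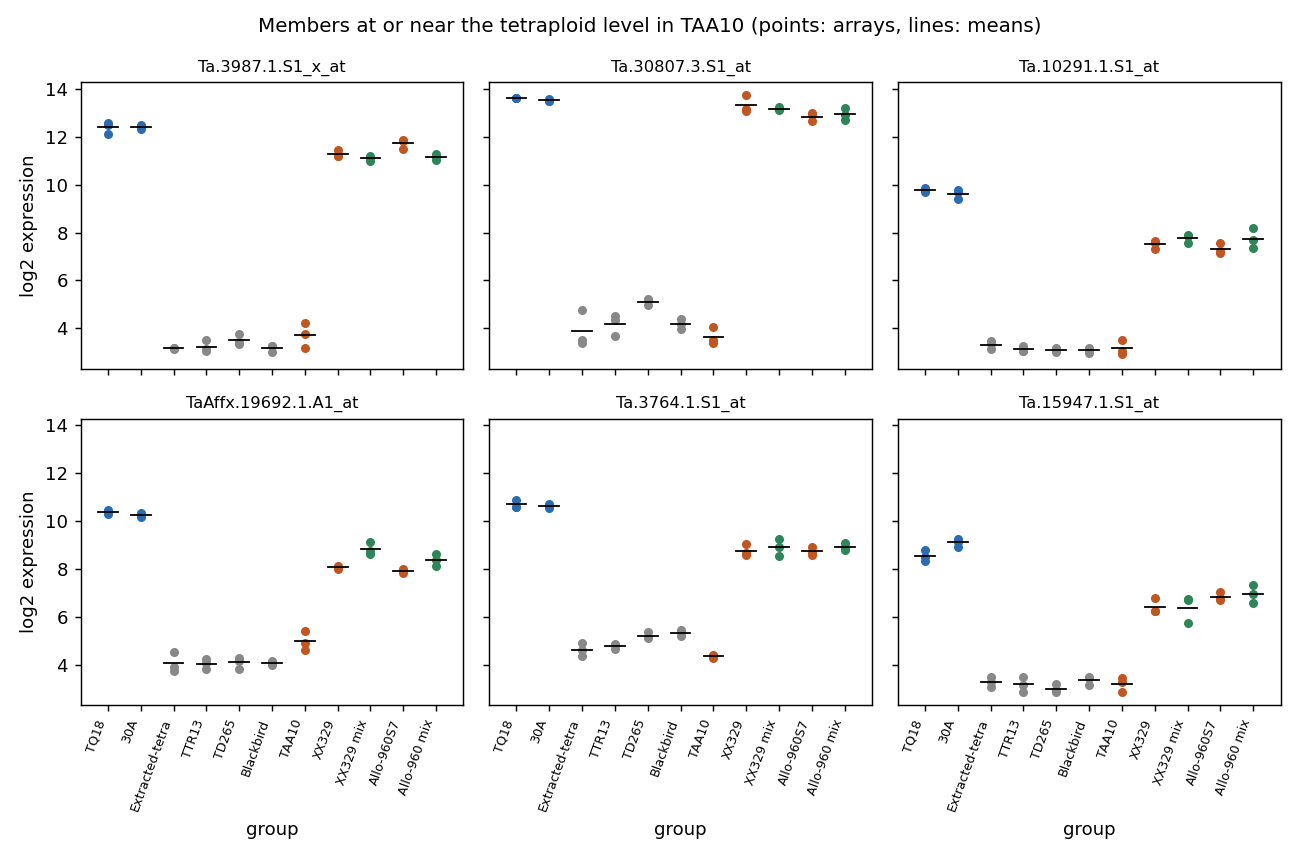
Log2 expression (y axis) of the 6 members near the tetraploid level in TAA10, by group (x axis), with points for arrays and lines for group means. In 5 panels the TAA10 points overlap the grey tetraploids or lie below some of them, in that of TaAffx.19692.1.A1_at they lie just above, and XX329, Allo-960S7 and both mixes stand well above them.

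In the synthetic hexaploids the low end was less clear. Ta.9449.1.A1_at in Allo-960S7 measured 4.57, 4.43 and 4.66, on average 0.63 above the highest tetraploid mean, against 7.94, 8.23 and 7.66 in its mix and 6.67, 7.73 and 6.74 in TAA10. No array of Allo-960S7 came near either group, and the fall of 3.39 from the mix was called (SE 0.64; limma adjusted p = 0.000508). In XX329 the same probe set gave 3.73, 4.53 and 8.16, a range of 4.43, the widest of all members in the 5 groups outside the rule. Against XX329 mix (7.53, 8.41 and 6.17) XX329 overlapped, and the difference of −1.90 did not pass (limma adjusted p = 0.14). Without XX329 replicate 3, Ta.9449.1.A1_at also counted as near the tetraploid level in XX329, which raises that count from 0 to 1.

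XX329 departed from its mix in few members, about as often up as down. Of the 200, 14 were higher and 14 lower, and 172 were not called. The background over the whole array was 0.94% higher and 0.943% lower, so members were called more often than probe sets at large. Many of the latter are dim, and the part of brightness in this was not tested. The median difference was −0.00 among members and 0.01 over all probe sets. The next 200 scores had 8 higher and 10 lower. The 200 highest mirror scores, the lowest tetraploid mean minus the highest diploid mean, had 3 higher and 8 lower. Leaving out 1 array at a time gave 7 to 22 members higher and 6 to 20 lower, with both highest counts without XX329 replicate 3. In a fit limited to the groups compared 2 were higher, the Ta.28592 pair, and 2 lower, Ta.23397.2.S1_at and Ta.23397.2.S1_x_at. The other calls of members against XX329 mix were lost there. Here and below, the share of all probe sets called is given only for the fit without such changes. Whether a change of count is particular to the members was not tested.

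Ta.23397.2.S1_at fell furthest in XX329. It measured 8.72, 8.18 and 8.34 in XX329 and 11.53, 11.77 and 10.81 in XX329 mix. Every XX329 array lay more than 2 log2 units below the lowest array of the mix. The difference of −2.95 (SE 0.28) is a level 7.75-fold lower (limma adjusted p = 1.26e-07). In TAA10 it gave 9.03, 8.92 and 9.81, above XX329 but also below both mixes. XX329 did not pass against TAA10 (−0.84, limma adjusted p = 0.149). Ta.23397.2.S1_x_at, with the same cluster and transcript number, differed by −2.94 between XX329 and its mix.

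Ta.18152.1.S1_at was lower in XX329 (7.83, 8.93 and 9.81) than in the mix (10.86, 10.68 and 10.54), by 1.84 log2 units (limma adjusted p = 0.00103). The XX329 arrays spread widely, and the call was lost in the fit limited to the groups compared. Ta.8733.1.S1_at rose in XX329 (10.04, 9.08 and 8.19 against 7.81, 7.84 and 7.63 in the mix), by 1.34 (limma adjusted p = 0.00466), and lost its call in the same limited fit.

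Ta.28592.1.S1_at and Ta.28592.1.S1_x_at rose furthest. Ta.28592.1.S1_at measured 11.58, 11.77 and 11.56 in XX329 and 9.23, 9.58 and 8.83 in XX329 mix. All XX329 arrays also lay above the 3 arrays of TQ18, the D genome donor (11.10, 10.51 and 10.64). The difference from the mix was 2.42, a 5.36-fold higher level (SE 0.18; limma adjusted p = 9.88e-10). TAA10, at 12.03, 12.04 and 11.92, was higher still, and XX329 did not pass against it (−0.36, limma adjusted p = 0.447). Ta.28592.1.S1_x_at differed from the mix by 2.43.

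Allo-960S7 departed from its mix in 37 members. Of these, 15 were higher and 22 lower, and 163 were not called. The background was 3.3% higher and 5.25% lower over all probe sets. The median difference was −0.07 among members and 0.03 over all probe sets. The next 200 scores showed 17 higher and 27 lower, no fewer than the members. The 200 highest mirror scores showed 17 higher and 48 lower. The count of higher members was sensitive, with 6 to 9 when 1 array was left out, 8 after each array was centred on its median and 31 with array weights.

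In the lower group stood Ta.23397.2.S1_at again. It measured 7.17, 7.16 and 7.37 in Allo-960S7 against 10.19, 11.28 and 10.37 in Allo-960 mix, a clear separation. The fall of 3.38 is a level 10.4-fold lower (SE 0.28; limma adjusted p = 1.48e-09). Ta.3823.1.S1_at measured 5.42, 5.61 and 8.05 in Allo-960S7 and 9.80, 9.91 and 8.90 in the mix, a difference of −3.18 (limma adjusted p = 2.61e-05). Only 2 of its 3 Allo-960S7 arrays were far below the mix. Without Allo-960S7 replicate 3 it counted as near the tetraploid level, which raises that count from 1 to 2.

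Ta.5598.1.S1_at had the largest rise among members called higher in Allo-960S7. It gave 12.48, 12.59 and 12.40, close to 30A (12.41, 12.64 and 12.64), against 11.06, 11.34 and 11.10 in the mix. The difference of 1.32 is a 2.5-fold higher level (SE 0.21; limma adjusted p = 6.4e-05). In XX329 it equalled its mix, at 11.36 in both. Ta.21998.1.A1_x_at and Ta.21998.1.A1_s_at, which share a cluster number, rose by 1.11 and 1.05 over Allo-960 mix (limma adjusted p = 0.000101 and 8.01e-05) and differed by −0.04 and −0.05 in XX329.

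The comparisons of each hexaploid with its mix share no array, and their calls are set side by side. They share the same estimate of the spread of each probe set, so the calls are not independent and the overlaps are a description. Of the 14 members lower in XX329 and the 22 lower in Allo-960S7, 6 were the same, 42.9% of the first list and 27.3% of the second. Over all probe sets 169 were lower in both, 29.3% and 5.26%. The 6 were Ta.23397.2.S1_at, Ta.23397.2.S1_x_at, Ta.1457.2.S1_at, Ta.23704.1.S1_x_at, Ta.12120.1.A1_at and TaAffx.23369.1.S1_at, the last named after its values were seen. Higher in both were the paired Ta.4178.1.S1_at and Ta.4178.1.S1_x_at, also named afterwards, 14.3% and 13.3% of the lists (14.4% and 4.12% over all probe sets). Higher in XX329 and lower in Allo-960S7 were 3 members, 21.4% and 13.6% of those lists (5.91% and 1.06% over all probe sets), and none went the other way. The 3 were Ta.1973.1.S1_at and the Ta.28592 pair. Ta.4178.1.S1_at rose by 1.03 in XX329 and 0.80 in Allo-960S7 (limma adjusted p = 0.006 and 0.0127). Among these shared members, only the Ta.23397 and Ta.28592 pairs kept the XX329 call in the fit limited to the groups compared.

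Ta.12120.1.A1_at shows the size of the smaller shared falls. It gave 6.63, 6.94 and 7.35 in XX329 against 8.17, 8.41 and 7.81 in its mix, a fall of 1.16 (limma adjusted p = 0.00367). In Allo-960S7 it gave 6.59, 6.66 and 7.13 against 7.37, 8.01 and 7.67, a difference of −0.89 (limma adjusted p = 0.00912). Neither pair of groups overlapped. The XX329 call was lost in the fit limited to the groups compared, and the Allo-960S7 call without its replicate 1 or 2 or without mix replicate 2. TAA10 gave 7.08, 7.61 and 7.08.

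**Figure D4:**
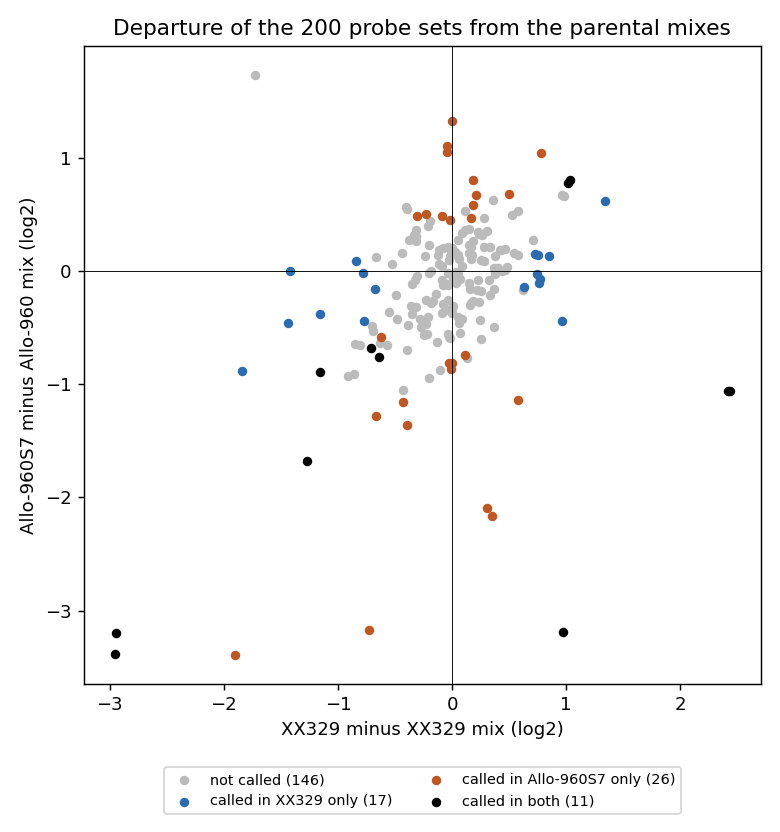
Difference of Allo-960S7 from its mix (y axis, log2) against the difference of XX329 from its mix (x axis, log2), 1 point per member, coloured by which comparisons were called. Of the 200 points, 146 are grey, 17 were called in XX329 alone, 26 in Allo-960S7 alone and 11 in both; the Ta.23397 pair stands at the lower left and the Ta.28592 pair at the right.

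Whether the departures differed was tested by an interaction term, the departure of Allo-960S7 minus that of XX329. It was positive and called for 10 members and negative and called for 13, with 177 not called, against 1.7% and 2.32% of all probe sets. The next 200 scores had 12 and 5, and the 200 highest mirror scores had 11 and 13, close to the members. Leaving out 1 array gave 6 to 17 and 7 to 16 members, both highest without XX329 replicate 3. Across the 200 members the departures correlated with r = 0.373 (0.131 over all probe sets), a description in which members with a shared cluster number count more than once.

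Ta.1973.1.S1_at had the widest difference. In Allo-960S7 it measured 9.12, 9.06 and 9.45, against 12.56, 12.47 and 12.18 in Allo-960 mix, a level 9.14-fold lower (−3.19, SE 0.22; limma adjusted p = 6.26e-11). In XX329 it measured 11.73, 12.01 and 11.95, above XX329 mix, whose arrays lay between 10.75 and 11.01 (0.97; limma adjusted p = 0.0152). It thus went in opposite directions, and the interaction was −4.17 (limma adjusted p = 7.26e-10). The call in XX329 was lost in the fit limited to the groups compared. TAA10, at 12.29 ± 0.13 (n = 3), was nearer to XX329 than to Allo-960S7.

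The Ta.28592 pair also went opposite ways. Ta.28592.1.S1_at was below its mix in Allo-960S7, with 10.76, 10.35 and 10.42 against 11.70, 11.47 and 11.55 (−1.06, 2.09-fold lower; limma adjusted p = 0.00017), whereas it rose in XX329. Its interaction was −3.49 (limma adjusted p = 7.26e-10). The donors themselves differed at this probe set, 10.75 ± 0.31 in TQ18 and 12.57 ± 0.06 in 30A (n = 3 each). The hexaploids ended closer to each other than their mixes did.

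Ta.521.1.S1_at had the highest interaction, 3.46 (limma adjusted p = 0.00823). It measured 4.36, 5.90 and 4.78 in XX329 against 7.13, 8.14 and 4.96 in its mix, and 8.72, 8.40 and 8.03 in Allo-960S7 against 7.27, 5.88 and 6.80 in Allo-960 mix. XX329 overlapped its mix, through 1 low mix array, and Allo-960S7 lay wholly above its own. Neither departure passed by itself (limma adjusted p = 0.121 and 0.0501), and the interaction lost its call in the fit limited to the groups compared (limma adjusted p = 0.0656).

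**Figure D5:**
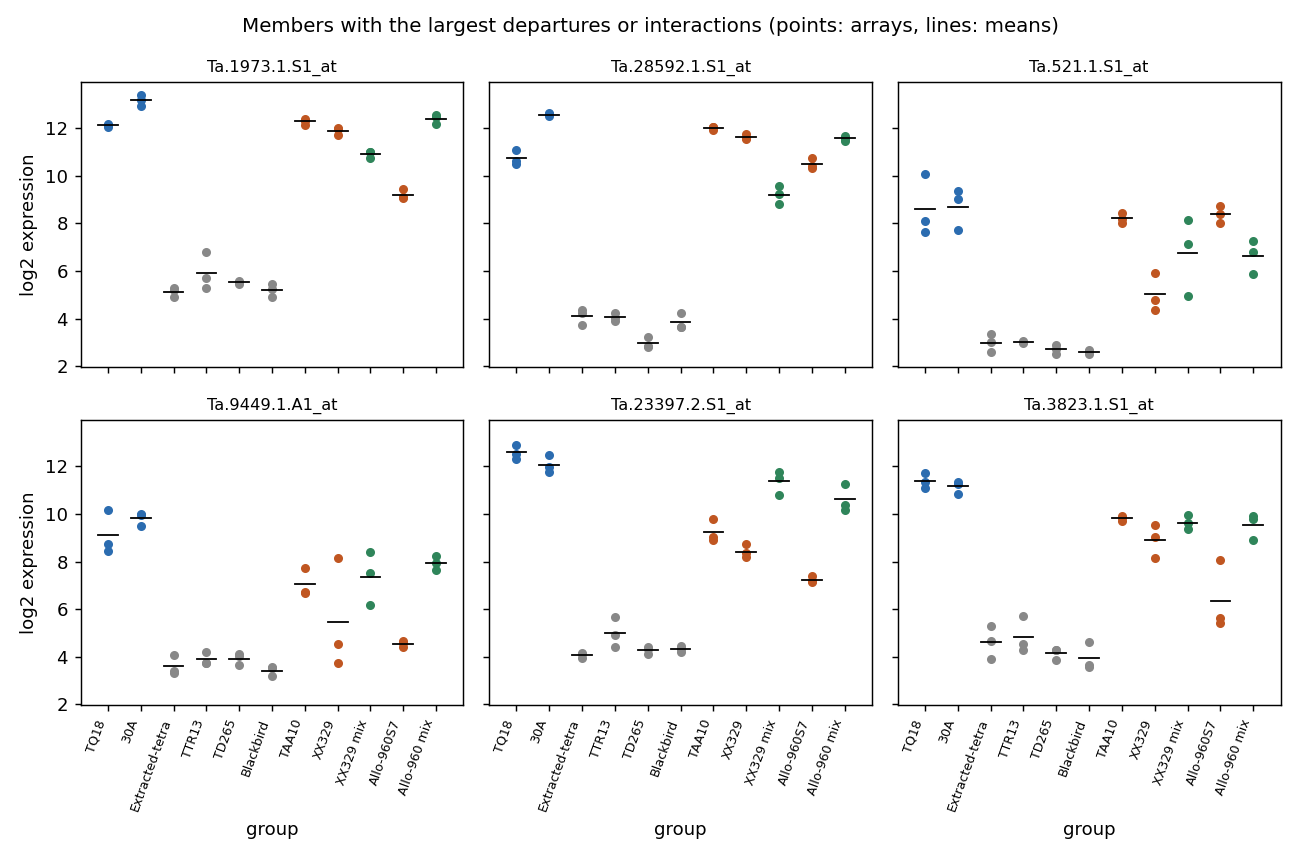
Log2 expression (y axis) of the 6 members, 1 per cluster number, with the largest departures from a mix or interactions, by group (x axis), with points for arrays and lines for group means. Ta.23397.2.S1_at is low in both synthetic hexaploids, Ta.1973.1.S1_at and Ta.3823.1.S1_at have their lowest hexaploid arrays in Allo-960S7, and single arrays stand apart in XX329 for Ta.9449.1.A1_at and in Allo-960S7 for Ta.3823.1.S1_at.

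Against TAA10, XX329 holds the BBAA genomes extracted from that line with another D genome. In this comparison 11 members were higher and 9 lower, and 180 were not called, with 0.816% higher and 1.33% lower over all probe sets. The next 200 scores had 7 higher and 12 lower, and the 200 highest mirror scores had 7 and 5. The median of members was −0.01. When 1 array was left out, 7 to 16 were higher and 5 to 15 lower, with both highest counts without XX329 replicate 3 and both lowest without TAA10 replicate 1. After each array was centred on its hybridisation controls, which moves the median of all probe sets to −0.26, the split was 7 higher and 17 lower.

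Ta.521.1.S1_at had the largest fall, with 8.19, 8.44 and 8.03 in TAA10 and every XX329 array below 6 (−3.21, 9.23-fold lower; limma adjusted p = 0.000423). Ta.7843.1.S1_a_at measured 12.05, 12.06 and 12.21 in TAA10 and 9.08, 9.90 and 9.49 in XX329 (−2.62, 6.14-fold lower; limma adjusted p = 1.84e-10). XX329 equalled its mix at this probe set (9.49 ± 0.41 and 9.43 ± 0.34, n = 3 each), and the donors were far apart, 11.24 ± 0.56 in TQ18 and 14.23 ± 0.01 in 30A. Allo-960S7, at 13.27 ± 0.04 (n = 3), was above TAA10 by 1.16 (limma adjusted p = 0.000107).

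Ta.3249.1.S1_at was brighter in TAA10 than in either diploid line. It measured 13.30, 13.48 and 13.46 in TAA10, 12.67 ± 0.12 in TQ18 and 12.65 ± 0.21 in 30A (n = 3 each). XX329 gave 11.46, 10.33 and 11.65, and Allo-960S7 gave 10.18, 10.95 and 11.31. Neither reached TAA10, and the differences were −2.26 (limma adjusted p = 1.49e-05) and −2.60 (limma adjusted p = 2.61e-07). Relative to their own mixes they were 0.91 and 0.93 lower, which did not pass (limma adjusted p = 0.159 and 0.0669).

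Allo-960S7 differs from TAA10 in all its genomes, and here 30 members were higher and 48 lower, with 122 not called. The background was also high, 10.4% higher and 11.5% lower over all probe sets. The next 200 scores had 27 higher and 50 lower, and the 200 highest mirror scores had 40 and 56. The median was −0.14 among members, −0.17 in the next 200 scores and 0.01 over all probe sets. Centred on hybridisation controls, the split of members turned to 81 higher and 25 lower and their median to 0.34. The median of all probe sets moved to 0.49. This centring shifts all probe sets of an array alike, so the gap between these medians could not change and is no second check. The 3′ minus 5′ difference of the actin controls was −1.24 ± 0.10 log2 units in Allo-960S7 and −0.464 ± 0.186 in TAA10 (n = 3 each), and its part in these calls was not tested.

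Ta.3823.1.S1_at and Ta.1973.1.S1_at, both far below Allo-960 mix, were also the lowest against TAA10, by −3.47 (TAA10 9.93, 9.84 and 9.72; limma adjusted p = 1.78e-06) and −3.08 (TAA10 12.15, 12.31 and 12.41; limma adjusted p = 4.87e-12). Ta.7947.1.S1_at came next, with 8.42, 8.46 and 8.65 in Allo-960S7 and 11.22, 11.05 and 11.09 in TAA10 (−2.61, 6.12-fold lower; limma adjusted p = 7.92e-12). Here Allo-960 mix was equally low, at 8.20, 8.54 and 8.33, and the donors differed, 10.21 ± 0.28 in 30A against 12.08 ± 0.15 in TQ18 (n = 3 each). Ta.5598.1.S1_at was the reverse, higher than TAA10 (9.84, 10.13 and 10.34) by 2.38 in Allo-960S7 and by 1.25 in XX329 (limma adjusted p = 4.81e-10 and 0.000253).

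The mixes themselves also differed from TAA10. XX329 mix was higher in 23 members and lower in 23, with 154 not called, beside 1.69% and 2.09% of all probe sets. In the next 200 scores it was higher in 21 and lower in 22, and in the 200 highest mirror scores in 12 and 2. Centred on hybridisation controls it was higher in 10 members and lower in 25. Allo-960 mix was higher in 29 and lower in 25, with 146 not called, beside 7.44% and 7.72%. The next 200 scores had 29 and 22, and the 200 highest mirror scores had 37 and 16. On hybridisation controls the split of members was 81 and 11, with the median of all probe sets moved to 0.43 and that of members to 0.42. Ta.28592.1.S1_x_at was lowest in XX329 mix against TAA10 (9.31 ± 0.42 and 12.10 ± 0.12, n = 3 each; −2.79, limma adjusted p = 2.15e-12), and XX329 itself had 11.74 ± 0.11. Ta.7947.1.S1_at was lowest in Allo-960 mix (−2.77, limma adjusted p = 2.1e-12). All comparisons with TAA10 share its 3 arrays.

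How the donors differed carried into the mixes. Across the 200 members, TQ18 minus 30A correlated with XX329 mix minus Allo-960 mix at r = 0.967 (0.402 over all probe sets), where the RNA of the same donors was diluted. With XX329 minus Allo-960S7 the correlation was 0.421 (0.369 over all probe sets). Both are descriptions over probe sets of the same arrays.

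Few members could be named. A gene symbol was attached to 11 of the 200, for 10 genes, all LOC numbers, which is 5.5% of members and 2.08% of all probe sets. No role is given for them because the annotation holds none. Where the RefSeq assembly of Chinese Spring places them, 8 of the 10 genes lie on a D chromosome and 2 on an A chromosome, LOC606341 and LOC606328, whose alias is Prx1. That is 80%, beside 36.3% of the 761 array genes placed and 1 of 9 among the 200 probe sets with the highest mirror score, those of the BBAA type. A gene symbol was attached to 5.5% of that BBAA list too.

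LOC606328 was read by 4 probe sets. Its member probe set, Ta.6572.2.S1_at, measured 13.40 in TQ18 and 13.44 in 30A, and 11.51, 11.65 and 11.79 in TAA10. Ta.6572.1.S1_at, with the same symbol, had 3.52 in TQ18 and 3.06 in 30A but 12.35 in the highest tetraploid and 11.57 in TAA10. The pair thus had opposite patterns in the diploid and tetraploid lines, and TAA10 gave signal at both. Ta.6572.1.S1_a_at and Ta.6572.3.S1_at, with the same symbol, scored 0.38 and −0.11 and did not separate the lines. Ta.6572.2.S1_at was higher in Allo-960S7 (12.25, 12.63 and 12.67) than in TAA10 by 0.87 (limma adjusted p = 0.000834) and not called against Allo-960 mix (0.06, limma adjusted p = 0.912).

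The member probe sets of LOC100037538 and LOC543002, both on D chromosomes, were those with a gene symbol below both mixes. Ta.1457.2.S1_at of LOC100037538 gave 11.48, 11.91 and 12.07 in XX329 against 12.52, 12.67 and 12.40 in its mix, a difference of −0.71 (limma adjusted p = 0.0195). In Allo-960S7 it gave 11.46, 11.35 and 11.27 against 12.10, 12.06 and 11.95, a difference of −0.68 (limma adjusted p = 0.00761). No arrays overlapped, but the XX329 call was lost in the fit limited to the groups compared and without XX329 replicate 1 or mix replicate 1 or 2, and the Allo-960S7 call on centring by hybridisation controls. Ta.23704.1.S1_x_at of LOC543002 gave 8.99, 10.15 and 10.36 in XX329 against 11.23, 11.20 and 10.89 (−1.27; limma adjusted p = 0.0284), a call that several alternatives ended. In Allo-960S7 it gave 8.38, 8.61 and 9.59 against 10.95, 10.92 and 9.74, also without overlap (−1.68; limma adjusted p = 0.000518). Ta.23704.1.S1_s_at and TaAffx.108452.1.S1_at, with the symbol LOC543002 but not members, scored 3.57 and −0.35. Their departures from the mixes are not given, so the falls are those of the member probe set.

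LOC100037524 (Ta.274.1.S1_at) was higher than TAA10 (11.19, 11.24 and 11.50) in Allo-960S7 (12.20, 12.42 and 12.24) by 0.98 (limma adjusted p = 1.79e-05), with no departure called from either mix. LOC542994 (Ta.28354.1.S1_at) and LOC543254 (Ta.28784.1.S1_x_at) were lower in Allo-960S7 than in TAA10, by −0.83 and −0.64 (limma adjusted p = 0.0108 and 0.0261), and lost these calls on centring by hybridisation controls. A further probe set of LOC543254, Ta.28784.1.A1_at, scored 1.05. LOC100037537 (Ta.24466.1.S1_x_at), LOC100049038 (Ta.25534.2.S1_at), LOC606341 and LOC100037599 were called in none of the comparisons. LOC606341 was read by a pair of members, Ta.23202.1.S1_at and Ta.23202.1.S1_x_at, at 9.91 ± 0.37 and 10.50 ± 0.21 in TAA10 (n = 3 each). A further probe set of this gene, Ta.23202.2.S1_s_at, scored 0.049 and did not separate the lines. It had 10.09 in TQ18, 9.92 in 30A and 9.87 in the highest tetraploid. For LOC100037599 (Ta.16082.1.A1_at) the TAA10 arrays were 7.07, 7.40 and 9.51, so 1 array stood apart. Ta.16082.1.A1_a_at, with the same symbol, scored 0.38.

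The probe sets themselves had some features in common. The type without a suffix letter, designed for 1 transcript, made up 79% of members and 79.2% of all probe sets. The _x_at type, with probes that can match unlike transcripts, made up 13.5% and 11.1%. IDs with the prefix Ta made up 87.5% of members but 51.4% of all probe sets. They also made up 87.5% of the 200 highest mirror scores and 80.5% of the next 200 scores, so this is not particular to the members. The members had 181 cluster numbers, 19 of them with 2 members each, and these 38 members are not counted as independent.

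Other probe sets with the cluster numbers of members varied in pattern. Of 157 cluster numbers with the prefix Ta, 93 had at least 1 probe set outside the members, 236 in all. Those 236 had a median score of −0.33. For 151 the score was 0 or less. A score above 1 was found for 43, or 18.2%, beside 4.89% over the whole array. A mirror score above 1, higher in all tetraploids than in both diploid lines, was found for 55, or 23.3%, beside 5.27%.

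Replicate spread was uneven among the groups. In XX329, 37 members ranged over more than 1 log2 unit among the 3 arrays, beside 5.06% of all probe sets. There were 13 such members in XX329 mix, 12 in Allo-960 mix, 11 in TAA10 and 10 in Allo-960S7. Beside these stood 1.36%, 1.07%, 1.66% and 0.796% of all probe sets, so a share above that of the array was not particular to XX329. In the groups of the rule the count ran from 5 in TQ18 and TD265 to 24 in TTR13. A range over 2 log2 units occurred for 6 members in XX329, 3 in TAA10, 3 in XX329 mix, 1 in Allo-960S7 and none in Allo-960 mix. Ta.28479.1.S1_at, named here for its spread, was wide in both TAA10 (7.09, 7.54 and 9.22) and XX329 (10.19, 8.27 and 6.93).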

How the data were processed

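Leaf RNA (6 µg per labelling) came from chamber-grown plants (16 h light, 24 °C light and 20 °C dark), per the labels' protocols. The deposited table holds the authors' log2 expression values, 1 per probe set and array, made with RMA per the submitters' processing notes, which also name limma and give no version. Background per spot and depth do not exist for these values, and the number of arrays limits the precision. Of 61290 probe sets, 111 AFFX controls were dropped. A cell-means model of all 33 arrays was fitted in R 4.3.3 with limma 3.58.1 (lmFit, eBayes), with Benjamini-Hochberg adjustment over 61179 probe sets within each of 7 contrasts and calls at an adjusted p under 0.05. The fit was tested on simulated data. P-values measure the spread between arrays labelled as biological replicates of a line.

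Members, lists and tests were chosen with earlier results of these data known. Probe sets named are the 5 highest scores, all with a gene symbol, the 3 highest and 3 lowest called without overlap of arrays in each hexaploid comparison (1 each for the interaction and for the mixes against TAA10), and the 3 nearest the tetraploid level in TAA10, XX329 and Allo-960S7. Symbols come from the platform annotation (1273 probe sets), and chromosomes from RefSeq (assembly IWGSC CS RefSeq v2.1), of which only the subgenome letter was taken. The planned gene groups by title could not be formed, since the annotation holds no titles.

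Same-numbered arrays of a pair of groups correlated between −0.253 and 0.159 after group means were removed, over 0.1 for all numbers in none of 6 pairs. Numbers were therefore not taken to pair arrays in these comparisons. No mix was set against its parents in this check, so whether they share RNA by number was not tested. Alternatives were median, hybridisation control and quantile scaling, dim probe sets left out, trend and robust eBayes, array weights, limited fits, a replicate block, each array left out, other distances and other member lists. Leaving out arrays for the count near the tetraploid level was added after seeing the data.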

Additional observations from a re-analysis of the deposited data

Results flagged for a closer look

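The test of the difference between the departures, the interaction of Allo-960S7 and XX329 with their mixes, passed for 10 members in the positive and 13 in the negative direction, with the background given above. Among named probe sets the interaction, as Allo-960S7 departure minus XX329 departure, was 0.68 for Ta.1147.1.A1_at (limma adjusted p = 0.0296), −0.77 for Ta.23362.2.S1_at (0.0492) and −2.45 for Ta.3823.1.S1_at (0.0325). These 3 calls ended under several alternatives. It was 1.32 for Ta.5598.1.S1_at, 1.15 for Ta.21998.1.A1_x_at and 1.10 for Ta.21998.1.A1_s_at, each near its mix in XX329 and above it in Allo-960S7. The largest values were −3.49 for Ta.28592.1.S1_at, −3.49 for Ta.28592.1.S1_x_at, −4.17 for Ta.1973.1.S1_at and 3.46 for Ta.521.1.S1_at.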

How the results depend on the processing

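Counts are given as higher/lower members. The share of all probe sets called in each setting is not given, so whether these changes are particular to the members was not tested. On hybridisation controls XX329 minus its mix had 4 higher, Allo-960S7 minus its mix 7 higher, the interaction 6 and 6, XX329 minus TAA10 7 and 17 (median −0.28), Allo-960S7 minus TAA10 81 and 25 (median 0.34), XX329 mix minus TAA10 10 higher, and Allo-960 mix minus TAA10 81 and 11 (median 0.42). The median of all probe sets lay between −0.26 and 0.49 in the same setting. Median centring gave 8 higher and a repeated quantile normalization 23 higher for Allo-960S7 minus its mix. Array weights gave 22 lower for XX329 minus its mix, 31 and 40 for Allo-960S7 minus its mix, 19 positive for the interaction and 38 lower for Allo-960 mix minus TAA10. The fit limited to the groups compared gave 2 and 2 for XX329 minus its mix, 38 lower for Allo-960S7 minus its mix, 6 and 7 for the interaction, and 7 and 5 for XX329 minus TAA10. With the replicate block in that fit these were 2 and 2, 36 lower, 4 and 7, and 6 and 4. The cause was not tested. Numbers did not pair the arrays of the groups compared, and own-numbered arrays correlated best in 0 to 2 of 3.

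Without 1 array at a time the ranges were 7 to 22 and 6 to 20 for XX329 minus its mix, 6 to 9 and 18 to 26 for Allo-960S7 minus its mix, 6 to 17 and 7 to 16 for the interaction, 7 to 16 and 5 to 15 for XX329 minus TAA10, 27 to 32 and 40 to 47 for Allo-960S7 minus TAA10, 15 to 25 and 15 to 20 for XX329 mix minus TAA10, and 21 to 29 and 17 to 24 for Allo-960 mix minus TAA10. Each array of XX329, XX329 mix, Allo-960S7 and Allo-960 mix and TAA10 replicates 1 and 2 moved at least 1 count by over 1.5 times. The count near the tetraploid level was 5 to 6 in TAA10, 0 to 1 in XX329 and 1 to 2 in Allo-960S7. At a distance of 2 log2 units it was 2 in XX329 and 3 in Allo-960S7, and in Allo-960S7 it was 0 at 0.5 and on hybridisation controls. Of the 200 members 176 to 198 stayed under other scalings or with lines left out of the score, and 195 to 200 with 1 array left out. For named probe sets 67 calls were checked. They were the calls by which extremes were named, and all calls of those named for score, gene symbol or nearness to the tetraploid level. These 67 were checked 968 times, with 100 losses of the call and 0 changes of sign, and 46 of them were never lost. Other calls given for named probe sets were not in this check.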
